A study of Mus musculus with 2 samples.

Results

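The genes described here are *Mest*, *Copg2* and *Klf14*, 3 of the 1363 annotated genes that held a covered base inside the deposited signal and all 3 members of the group, which was chosen by name and position on mouse chromosome 6 (mm9) and not by level. The question asked of them was how much RNA each strand carried over their exons and introns, and how far the (+) strand signal ran from the 3′ end of *Mest* into *Copg2*. RNA had been sequenced from 2 MEF (mouse embryo fibroblast) lines, 1 per reciprocal cross. JXO MEFs came from a JF1 mother and a TgOG2 (OG2) father, and OXJ MEFs from an OG2 mother and a JF1 father. JF1 is an inbred strain of the *molossinus* subspecies, and OG2 is a *domesticus* line that carries an EGFP reporter transgene of *Oct4* regulatory sequence, so both lines inherited the transgene from 1 parent. Each line was the culture of 1 female embryo of 13.5 dpc without its head and internal organs, used at an early passage. Cross, embryo, culture and library cannot be told apart, there are no replicates, and no test between the crosses was possible.

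*Mest* encodes a protein of the α/β hydrolase fold family and is a classical paternally expressed imprinted gene, transcribed from the unmethylated paternal allele of its promoter in mesodermal tissues of the embryo. *Copg2* encodes a γ subunit of coatomer, the coat of vesicles that return proteins from the Golgi to the endoplasmic reticulum. It lies tail to tail with *Mest* and has been described in mouse as preferentially maternal in some tissues. A longer form of *Mest* RNA that runs into *Copg2* is known from mouse brain. *Klf14* is a single-exon gene of the Krüppel-like transcription factors and is expressed from the maternal allele in mouse. The tracks give depth without the bases read, and the parental origin of the RNA was not analysed here. The paper that reported these data listed *Mest* as paternally expressed in these MEFs. By that listing its RNA came mainly from the OG2 allele in JXO and from the JF1 allele in OXJ. The same list names neither *Copg2* nor *Klf14*, so it does not give the parental origin of their RNA in these MEFs.

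In the GENCODE M1 annotation, *Mest* (ENSMUSG00000051855.8) occupies chr6:30673547-30698457 on the (+) strand, *Copg2* (ENSMUSG00000025607.8) chr6:30697554-30846794 on the (−) strand and *Klf14* (ENSMUSG00000073209.3) chr6:30906021-30908990 on the (−) strand. The last exons of *Mest* and *Copg2* overlap over 904 bases, chr6:30697554-30698457. Inside *Copg2*, 4354 bases beyond the end of *Mest*, the mm9 assembly has a gap of 50000 unknown bases (chr6:30702812-30752811) to which no read can align. The annotated 5′ part of *Copg2* beyond the gap is 93983 bases long, and *Klf14* begins 59226 bases past *Copg2*. An intron of *Mest* holds the microRNA gene *Mir335* on the same strand.

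The sequences that bear on where transcription began are those before the annotated starts, which RefSeq gives on GRCm38.p6 and which matched the mm9 positions named here base for base. They are the 250 bases before the start of the main *Mest* transcripts (chr6:30687800-30688049), those before an upstream annotated start of *Mest* (chr6:30683256-30683505) and those before *Copg2* (chr6:30846795-30847044, read on the (−) strand). Capitals mark the GC box, GGGCGG on the strand shown or its reverse complement, a sequence known to bind Sp1.
Mest main start: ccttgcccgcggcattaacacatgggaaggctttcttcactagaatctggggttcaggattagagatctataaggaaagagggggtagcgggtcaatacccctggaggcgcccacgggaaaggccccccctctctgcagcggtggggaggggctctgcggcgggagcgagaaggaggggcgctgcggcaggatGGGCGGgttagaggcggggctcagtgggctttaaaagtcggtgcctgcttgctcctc
Mest upstream start: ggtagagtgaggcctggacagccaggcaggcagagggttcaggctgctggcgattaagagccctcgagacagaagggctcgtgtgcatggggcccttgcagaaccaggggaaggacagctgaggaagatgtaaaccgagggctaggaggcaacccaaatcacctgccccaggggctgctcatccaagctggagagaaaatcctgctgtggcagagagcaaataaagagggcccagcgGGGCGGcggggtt
Copg2 start: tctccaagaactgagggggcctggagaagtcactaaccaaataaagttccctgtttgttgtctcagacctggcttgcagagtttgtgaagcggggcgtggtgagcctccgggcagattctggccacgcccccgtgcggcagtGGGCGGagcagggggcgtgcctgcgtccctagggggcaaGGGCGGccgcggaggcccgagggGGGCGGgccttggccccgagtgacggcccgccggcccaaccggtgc
The main *Mest* promoter holds 14 CG dinucleotides, the upstream one 7 and that of *Copg2* 19, against a median of 6 over 32851 mouse promoters of this length. The GC box occurs once before either start of *Mest* and 3 times before *Copg2*. It is found in 32.7% of all these promoters, so that its presence here is only a description. The TATAAA box, found in 12.4% of them on either strand, is in none of the 3 sequences.

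Of the main and the upstream start of *Mest*, RNA was found past the main one only. First exons of other annotated *Mest* transcripts lie further inside the gene. They share bases with exons of the main transcript, so their use cannot be told apart. The first 100 bases after the main *Mest* start had a level of 89.3 in JXO and 75.7 in OXJ, while the first 100 bases after the upstream start had no read in either library. Levels are the mean scaled depth, that is, the reads over a base per 50000000 aligned reads. The 5 annotated transcripts that start upstream had no read over their first exons in either library. The 14416 bases from the annotated start of the gene to just before the main start held 0 reads on the (+) strand in JXO and 2 reads in OXJ, where 3 read pairs would be a level of 0.0271 in JXO and 0.0241 in OXJ. The first 100 bases of *Copg2* had a level of 6.83 in JXO and 4.35 in OXJ on the (−) strand.

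The data behind these values are 4 tracks, with 5837225 reads for JXO and 5785447 for OXJ, or 7.61% of all aligned reads in JXO and 6.70% in OXJ. One read is worth a scaled depth of 0.652 in JXO and 0.579 in OXJ. The intervals given are 95% Poisson intervals on read pairs, or Clopper-Pearson intervals for shares, and cover counting error only. Among 560 protein-coding genes outside the imprinted lists, 538 had more signal on their own strand in JXO (96.1%) and 539 in OXJ (96.2%). The median protein-coding gene was higher in JXO than in OXJ by 0.49 on the log2 scale as deposited, and ratios of JXO over OXJ are therefore given relative to that gene. Of 18 fibroblast genes listed, 3 lay inside the tracks, led by the collagen gene *Col1a2* with a level of 1295 in JXO and 866 in OXJ. Far below it were *Dcn* (25.4 in JXO and 28.7 in OXJ) and *Lum* (18.9 in JXO and 15.5 in OXJ). The muscle, blood, endothelial and epithelial lists had 0 genes inside the tracks, so the purity of the MEFs could not be checked on them. Of the neural list 2 genes were measured (*Nes* with 356 in JXO and 162 in OXJ, and *Sox2* with 1.27 and 1.22), and of the germ cell list *Ddx4* (0.980 in JXO and 4.14 in OXJ) and *Dppa3*, with no read over its exons in either library.

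*Mest* was the most abundant of the 3 genes, *Copg2* came next and *Klf14* was barely covered. Over all annotated exons, *Mest* had a (+) strand level of 169 (interval 164 to 174) in JXO and 106 (103 to 110) in OXJ. Over the 12 exons of the transcript with the longest coding sequence, which leaves out the unread upstream exons, the level was 261 (254 to 268) in JXO and 164 (159 to 170) in OXJ. *Mest* held rank 52 in both libraries among 857 protein-coding genes when all were measured in this way. The vesicle coat gene *Copg2* had a (−) strand level of 27.6 (25.9 to 29.4) in JXO and 17.4 (16.1 to 18.8) in OXJ over all exons, and 31.1 (29.1 to 33.1) in JXO and 19.7 (18.2 to 21.2) in OXJ over the 24 exons of its main transcript. *Copg2* held rank 269 in JXO and 282 in OXJ. The intervals of the 3 genes did not overlap in either library. No second full-length match of any of the 3 transcripts was found in mm9. A stretch of *Copg2* aligned weakly elsewhere on chromosome 6, with 324 of 1331 aligned bases matching.

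*Klf14*, the maternally expressed transcription factor gene, was at the edge of detection. In JXO 3 reads covered 169 of its 2970 bases, and in OXJ 4 reads covered 335 bases, on the (−) strand of the gene in both. Its level was 0.0658 (interval 0.00474 to 0.282) in JXO and 0.0780 (0.00944 to 0.282) in OXJ. Both values are below the level of 3 read pairs, 0.132 in JXO and 0.117 in OXJ, so no ratio was taken, and a difference of *Klf14* between the crosses was not detectable at this depth. On the (+) strand *Klf14* had 0 reads in either library, with intervals of the level that reach up to 0.162 in JXO and 0.144 in OXJ. Between *Copg2* and *Klf14* the annotation has the non-coding gene *4930412F09Rik*, whose exons held 0 reads in both libraries. The tracks are a selection from the libraries, and an empty base outside the covered stretches does not show that a locus was silent.

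**Figure D1:**
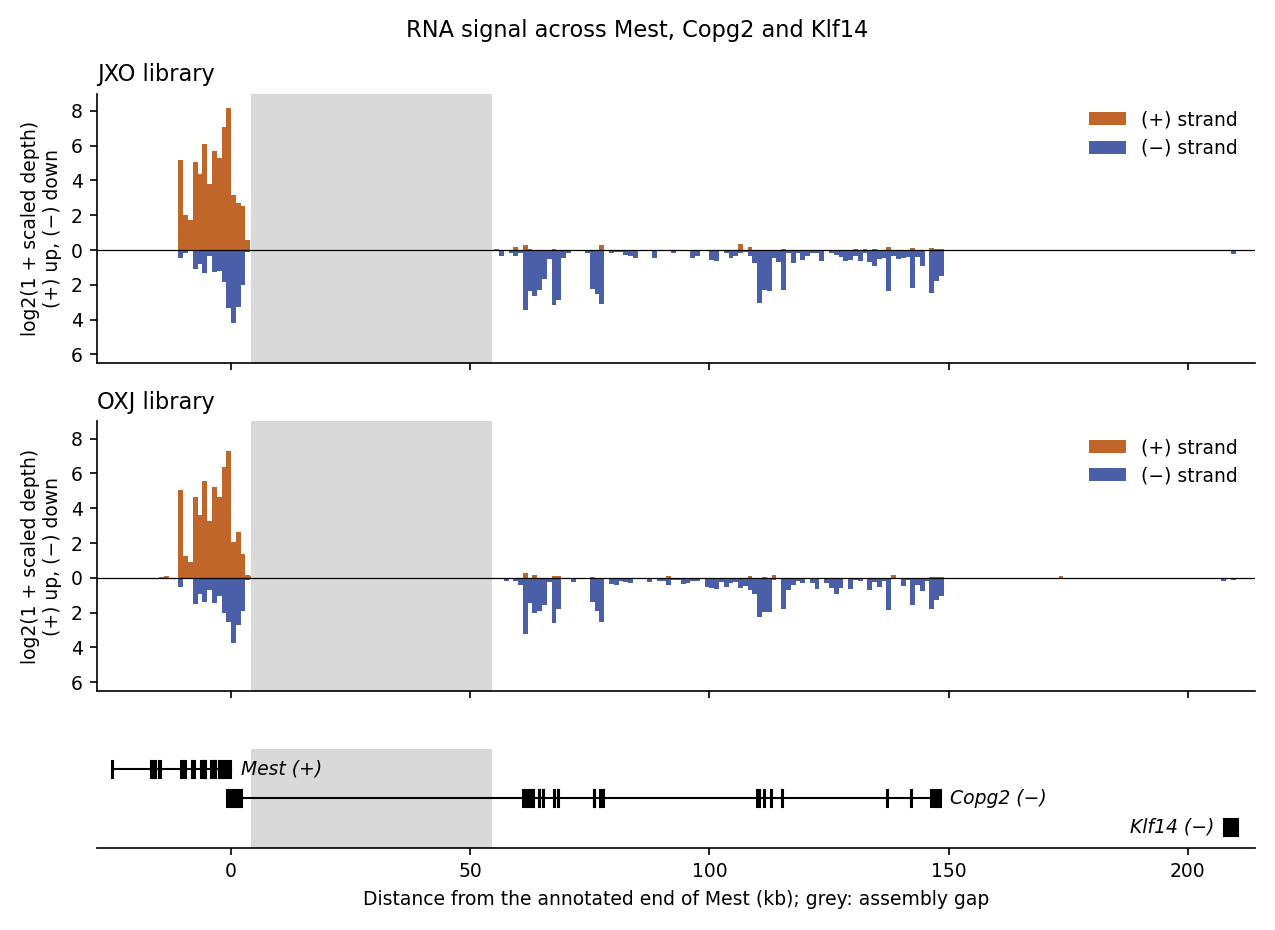
Mean scaled depth in 1 kb bins, as log2(1 + depth), against the distance from the annotated end of *Mest*, with (+) strand RNA drawn upward and (−) strand RNA downward, for JXO (top) and OXJ (middle), above the exons of the 3 genes. The grey band is the gap of 50000 bases; *Mest* fills the (+) strand to its left, *Copg2* exons stand out on the (−) strand on both sides of it, and hardly any signal is seen at *Klf14*.

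The exons of *Mest* were covered unevenly, with the 5′ end lowest. In JXO the 12 exons ran from 126 in exon 1 to 299 in exon 9, with a median of 260. In OXJ they ran from 119 in exon 1 to 211 in exon 8, with a median of 168. Exon 2 was the next lowest in JXO at 187, whereas in OXJ exon 3 followed exon 1 at 129. The last exon, which holds the annotated overlap with *Copg2*, had 296 in JXO and 169 in OXJ. The exons of *Copg2* ran on the (−) strand from 15.9 in exon 24, the last, to 63.9 in exon 13 in JXO, with a median of 42.1. In OXJ they ran from 10.5 in exon 24 to 33.1 in exon 5, with a median of 24.7.

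*Copg2* exons were covered on both sides of the assembly gap. The 3 exons between the gap and the last exon averaged 40.6 ± 9.58 in JXO and 27.5 ± 2.62 in OXJ (SD over exons, n = 3). The 20 exons on the 5′ side of the gap averaged 41.1 ± 10.6 in JXO and 24.9 ± 4.63 in OXJ (SD over exons, n = 20). In JXO the means differ by less than either SD, and in OXJ by slightly more than the smaller SD and less than the larger one. Exons of 1 gene are not replicates, and the SD describes unevenness along the transcript.

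**Figure D2:**
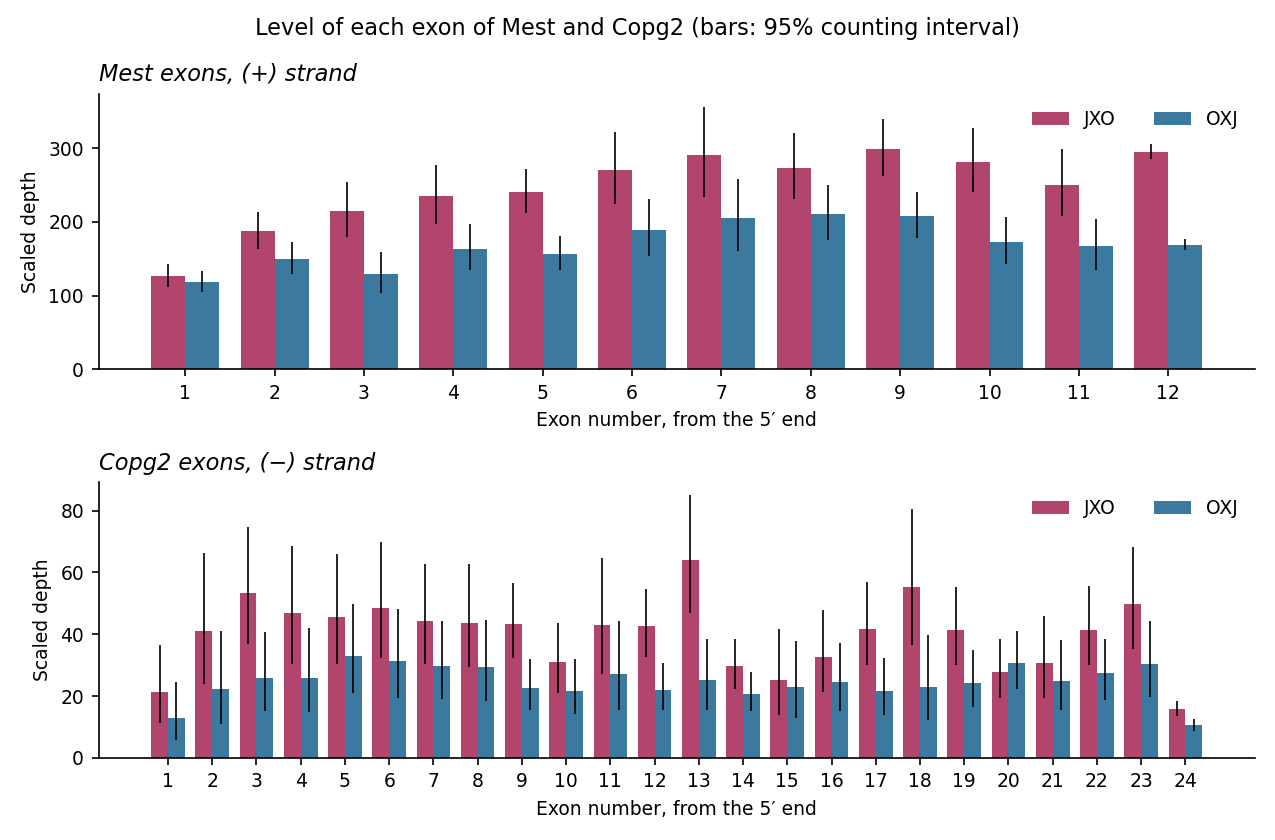
Level of each exon, as scaled depth, by exon number from the 5′ end, for *Mest* on the (+) strand (top) and *Copg2* on the (−) strand (bottom), with JXO and OXJ side by side and 95% counting intervals as bars. *Mest* exons lie between 126 and 299 in JXO and between 119 and 211 in OXJ; in *Copg2*, exon 24, most of which overlaps *Mest*, is lowest in both libraries.

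Introns of both genes carried little RNA. Over the introns of its annotated transcripts *Mest* had a (+) strand level of 0.571 (interval 0.460 to 0.700) in JXO and 0.248 (0.181 to 0.332) in OXJ, or 0.338% of the exon level in JXO and 0.233% in OXJ. Between the exons of the main transcript alone, the introns reached 1.82 in JXO and 0.781 in OXJ, which is 0.698% and 0.475% of the level of these exons. The single introns ran from 0.153 (intron 8) to 3.52 (intron 2) in JXO and from 0.0196 (intron 10) to 1.34 (intron 3) in OXJ. *Copg2* introns had a (−) strand level of 0.238 (0.204 to 0.276) in JXO and 0.214 (0.183 to 0.248) in OXJ, 0.862% of its exon level in JXO and 1.23% in OXJ, with the unknown bases of the gap left out. Among 474 protein-coding genes with an exon level of at least 1 the median was 2.73% in JXO and 2.88% in OXJ. *Mest* stood at percentile 5.27 in JXO and 2.32 in OXJ of these genes, and *Copg2* at percentile 16.0 in JXO and 17.9 in OXJ. These percentiles use the introns of all annotated transcripts. For *Mest* they include bases before the main start, where 0 reads were found in JXO and 2 in OXJ. No percentile was taken for the main transcript alone.

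Both arms of the microRNA that is processed from a *Mest* intron are shown because *Mir335* is the other gene transcribed within *Mest*. Capitals mark the seed, bases 2 to 8.
mmu-miR-335-5p: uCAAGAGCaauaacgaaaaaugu
mmu-miR-335-3p: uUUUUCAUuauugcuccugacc
The hairpin, chr6:30691299-30691396 on the (+) strand, had reads equal to 2.01 reads over its length in JXO and 0 in OXJ. Both are below 3 read pairs, and these libraries of long RNA do not measure the mature microRNA. The sequences are those of RefSeq.

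Nearly all signal over *Mest* exons was on its own strand. The sense share of all exons was 97.5% (interval 97.0 to 97.9%) in JXO and 96.6% (96.0 to 97.2%) in OXJ. For *Copg2* the same share was only 31.9% (30.3 to 33.7%) in JXO and 34.6% (32.5 to 36.8%) in OXJ, because the (+) strand signal of *Mest* in the shared 904 bases counts as antisense there. Without those bases the sense share of *Copg2* was 93.1% (91.2 to 94.6%) in JXO and 93.9% (91.9 to 95.6%) in OXJ. The remaining antisense share, 6.88% in JXO and 6.15% in OXJ, lay at percentile 93.0 in JXO and 89.0 in OXJ among 517 protein-coding genes whose median was 2.78% in JXO and 3.64% in OXJ. That of *Mest* outside the overlap, 2.16% in JXO and 3.63% in OXJ, lay at percentiles 33.5 and 49.7. The antisense share of *Copg2* was uneven along the gene. It was 24.6% in JXO and 14.8% in OXJ in the last exon past *Mest*. Between that exon and the assembly gap the exons had 16.7% in JXO and 19.5% in OXJ. The exons past the gap had 1.18% (0.512 to 2.32%) in JXO and 1.35% (0.469 to 2.75%) in OXJ, below the medians of the 517 genes.

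In the overlap itself *Mest* RNA prevailed. The (+) strand had a level of 282 (interval 269 to 294) in JXO and 158 (149 to 167) in OXJ over the 904 bases. The (−) strand had 9.12 (7.01 to 11.7) in JXO and 4.85 (3.43 to 6.66) in OXJ. The (−) strand thus held 3.14% (2.41 to 3.98%) of the signal in JXO and 2.99% (2.13 to 4.09%) in OXJ. In the exons of *Mest* before the overlap, where *Copg2* is not annotated, this share was 2.15% (1.68 to 2.72%) in JXO and 3.62% (2.90 to 4.42%) in OXJ. The intervals of these shares met in both libraries. By level, the (−) strand of the exons before the overlap had 5.47 (4.25 to 6.93) in JXO, below that of the overlap, and 6.32 (5.08 to 7.77) in OXJ, where the intervals met. In the adjacent part of the last *Mest* exon alone, the (−) strand had 6.42 (4.15 to 9.50) in JXO and 6.29 (4.16 to 9.14) in OXJ. Both of these intervals met those of the overlap. Just past the end of *Mest*, the other 530 bases of the last *Copg2* exon had a (−) strand level of 27.4 (22.6 to 33.0) in JXO and 20.1 (16.2 to 24.6) in OXJ, above the level within the overlap in both libraries.

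The 2 strands changed over within less than 200 bases. Depth for these positions was a running mean over 50 bases. The last base at which (+) strand depth was at least 50% of the level of the last *Mest* exon before the overlap lay 42 bases before the annotated end of *Mest* in JXO and 126 bases before it in OXJ. The last base at which (−) strand depth was at least 50% of the level of the *Copg2* exon outside *Mest* lay 40 bases past that end in JXO and 55 bases past it in OXJ. The poly(A) signal hexamer AATAAA was found on the (+) strand at chr6:30698439-30698444 and on the (−) strand at chr6:30698426-30698431. Both matches lie close to where the signals dropped, and are only a description. A *Copg2* hexamer at the annotated 3′ end of the gene, chr6:30697569-30697574, lies inside the last exon of *Mest*.

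The tail-to-tail arrangement was set beside the other protein-coding pairs of the tracks that overlap at their 3′ ends, 13 beside *Mest* and *Copg2*. In JXO the strand with less signal held 3.14% in the overlap of *Mest* and *Copg2*, against 0 to 49.7% in the others (median 9.25%), of which 3 were lower. In OXJ it held 2.99%, against 3.56 to 46.3% in the 12 others with a value (median 8.67%), of which 0 were lower. These overlaps differ in length and in the levels of their genes, and the values are a description.

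**Figure D3:**
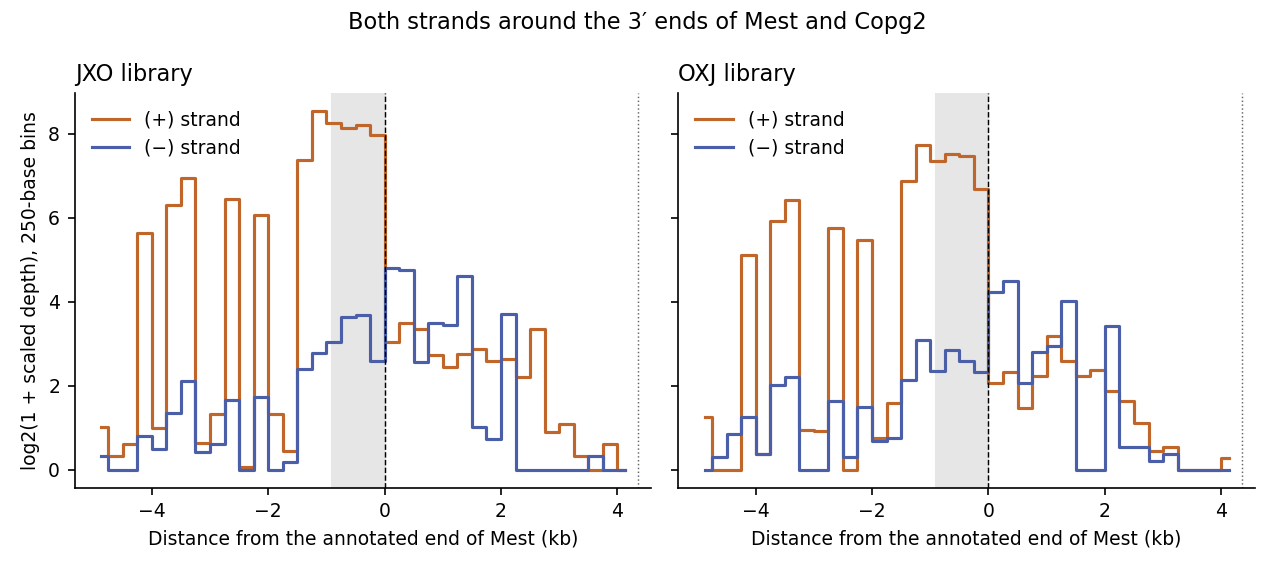
Scaled depth in bins of 250 bases, as log2(1 + depth), on the (+) and (−) strand against the distance from the annotated end of *Mest* (dashed line), for JXO (left) and OXJ (right); the grey band is the annotated overlap with *Copg2* and the dotted line the start of the assembly gap. The (+) strand drops at the dashed line but goes on into *Copg2*, while the (−) strand is higher to the right of the line than in the band.

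Signal on the (+) strand went on past the annotated end of *Mest* into *Copg2*. Over the 4354 bases up to the gap its level was 4.30 (interval 3.62 to 5.06) in JXO and 2.33 (1.87 to 2.88) in OXJ, which is 2.54% (2.14 to 2.99%) of the *Mest* exon level in JXO and 2.19% (1.76 to 2.701%) in OXJ. Against the exons of the main transcript, which leaves out the unread upstream exons, it was 1.65% in JXO and 1.42% in OXJ. In the first 2 kb the level was 6.75 (5.51 to 8.18) in JXO and 4.20 (3.29 to 5.29) in OXJ, with at least 1 read over 98.5% of these bases in JXO and over 99.3% in OXJ. Allowing uncovered stretches of up to 1000 bases, the run of (+) strand reads reached 3888 bases past *Mest* in JXO and 4254 bases in OXJ. With a limit of 200 bases it reached 3369 bases in JXO and 3160 in OXJ. In the last 1 kb before the gap the level was 0.140 in JXO and 0.0579 in OXJ, below that of 3 read pairs (0.391 in JXO and 0.347 in OXJ). The run thus became sparse before the gap was reached, and whether it went on inside the gap cannot be seen.

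Within the introns of *Copg2* between the end of *Mest* and the gap, (+) strand RNA exceeded the (−) strand RNA of the host gene. The (+) strand level was 3.22 (2.58 to 3.98) in JXO and 1.74 (1.30 to 2.28) in OXJ. The (−) strand level was 0.200 (0.0679 to 0.454) in JXO and 0.179 (0.0611 to 0.405) in OXJ. The (+) strand thus held 94.2% (87.8 to 98.2%) of the intron signal here in JXO and 90.7% (81.0 to 97.1%) in OXJ. Over the 3 *Copg2* exons in the same interval the order was the opposite, with (+) strand levels of 5.29, 8.77 and 10.1 in JXO and 3.72, 5.95 and 10.6 in OXJ from exon 21 to exon 23, where the (−) strand levels were 30.6, 41.5 and 49.7 in JXO and 25.01, 27.3 and 30.2 in OXJ. The part of the last *Copg2* exon next to *Mest* had a (+) strand level of 8.94 (6.27 to 12.4) in JXO and 3.48 (1.99 to 5.66) in OXJ. The level of exon 23 lay inside that interval in JXO and above it in OXJ, from 15.3 reads in JXO and 18.2 in OXJ. Whether the level declined steadily with the distance from *Mest* was not tested.

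Beyond the gap little (+) strand signal was found. Over the 93983 bases of *Copg2* past it, the (+) strand level was 0.0194 (interval 0.0106 to 0.0326) in JXO, from 28 reads, and 0.0115 (0.00534 to 0.0216) in OXJ, from 18.6 reads. The (−) strand level was 1.16 (1.08 to 1.24) in JXO and 0.782 (0.722 to 0.845) in OXJ, so that the (+) strand made up 1.65% (0.904 to 2.75%) of the signal in JXO and 1.45% (0.641 to 2.64%) in OXJ. Of the (+) strand reads, 16.0 in JXO and 12.8 in OXJ lay over *Copg2* exons, where their share was 1.18% and 1.35%. The median antisense share over exons of 517 protein-coding genes was 2.78% in JXO and 3.64% in OXJ. Whether these reads belong to the run past *Mest* was not tested. The first 5 kb past the gap held 1 read on the (+) strand in JXO and 0 in OXJ, with intervals of the level that reach up to 0.122 in JXO and 0.0854 in OXJ.

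Signal past the 3′ end was not particular to *Mest*. Among 422 protein-coding genes with an exon level of at least 1, whose following 5 kb lies inside the tracks and holds no other gene of the same strand, the signal in those 5 kb had a median of 0.819% of the exon level in JXO (quartiles 0.197 to 2.84%) and 0.885% in OXJ (0.243 to 3.01%). *Mest* stood at percentile 73.7 in JXO and 69.4 in OXJ, inside the quartiles in both libraries. Its own window was the 4354 bases up to the gap and thus shorter than 5 kb. When all genes were measured on the transcript with the longest coding sequence, *Mest* stood at percentile 67.1 in JXO and 64.0 in OXJ.

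Neither *Mest* nor *Copg2* differed between the crosses by more than 2-fold. Relative to the median gene, the log2 ratio of JXO over OXJ was 0.17 (interval 0.11 to 0.23) for *Mest* and 0.17 (0.02 to 0.31) for *Copg2*, while as deposited the ratios were 0.67 and 0.66. Of 611 protein-coding genes with at least 20 read pairs over both libraries, 8 were at least 2-fold higher in JXO (1.31%) and 18 at least 2-fold lower (2.95%). Of the 2 members that reached 20 read pairs, 0 were among these, which against this background says little about them. Over the *Mest* exon bases that *Copg2* does not share, the ratio was 0.075 (interval −0.0019 to 0.15), which includes 0. All these intervals cover counting error only and not the difference between 2 embryos or cultures. Of the 4 neighbouring genes with enough reads, 3 had ratios between 0.22 and 0.24 and 1 was lower. The Kelch gene *Klhdc10* had 0.24, the transmembrane protein gene *Tmem209* 0.24 and *Tsga14* 0.22. The carboxypeptidase gene *Cpa4* had −1.34, from 16 reads in JXO and 32.4 in OXJ.

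**Figure D4:**
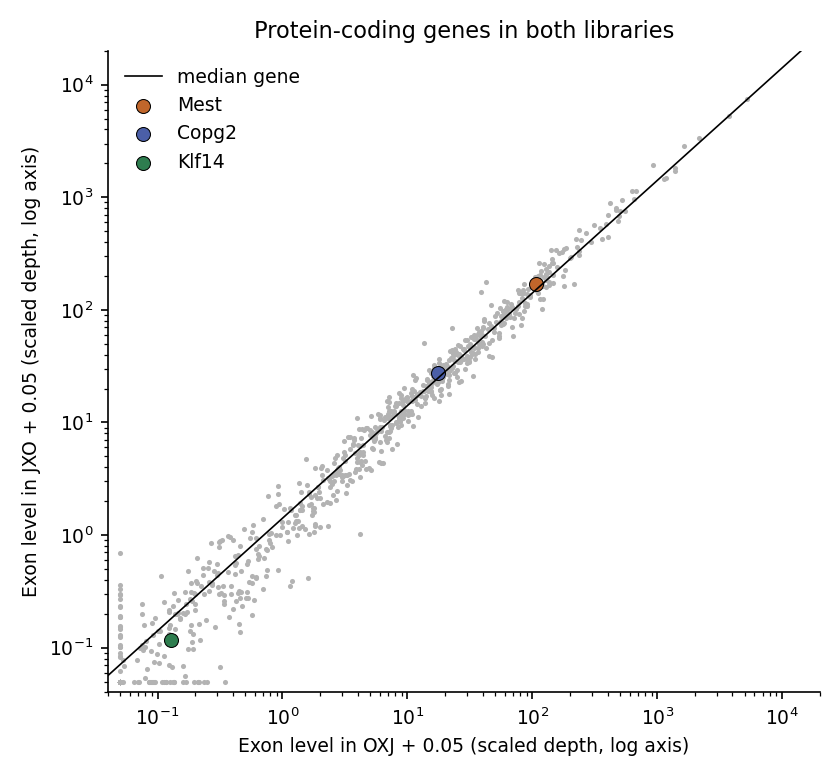
Exon level over all annotated exons plus 0.05, as scaled depth on log axes, in JXO against OXJ for 857 protein-coding genes (grey) with *Mest*, *Copg2* and *Klf14* marked; the line is the ratio of the median gene. *Mest* and *Copg2* lie next to the line, at 169 and 27.6 in JXO and 106 and 17.4 in OXJ, and *Klf14* lies among the genes with a handful of reads.

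Along *Mest* the ratio of the libraries was not constant. As deposited, all 12 exons were higher in JXO. Relative to the median gene, exon 1 had a log2 ratio of −0.41 (interval −0.66 to −0.16), and exons 2 to 11 together 0.04 (−0.07 to 0.14). The last exon had 0.24 (0.16 to 0.33) up to its last 200 bases. Those last 200 bases had 0.98 (0.70 to 1.27), with a (+) strand level of 231 (207 to 256) in JXO and 82.9 (69.9 to 97.6) in OXJ. The last 500 bases had 0.47 (0.33 to 0.62). Both lengths were chosen after the values were seen, and the size at the end of *Mest* depends on them. Over the whole last exon the ratio was 0.31 (0.23 to 0.39). The introns of the main transcript had 0.72 (0.24 to 1.23), and the signal from the end of *Mest* to the gap 0.39 (−0.01 to 0.79). In *Copg2*, exons 1 to 23 had 0.18 (0.02 to 0.34), the last exon outside *Mest* −0.04 (−0.46 to 0.36), and the introns past the gap −0.34 (−0.66 to −0.02). Of the single introns past the gap, intron 9 alone had an interval wholly below 0, at −1.02 (−1.59 to −0.44). Others lay on both sides of 0, such as intron 5 at −0.29 (−0.85 to 0.25) and intron 4 at 1.31 (−0.32 to 3.45). The value over these introns together is thus not a general shift of them, and no ratio was taken without intron 9. As deposited, 23 of the 24 exons of *Copg2* were higher in JXO, and relative to the median gene exon 13 alone had an interval above 0, at 0.86 (0.07 to 1.66), and none had one below 0.

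**Figure D5:**
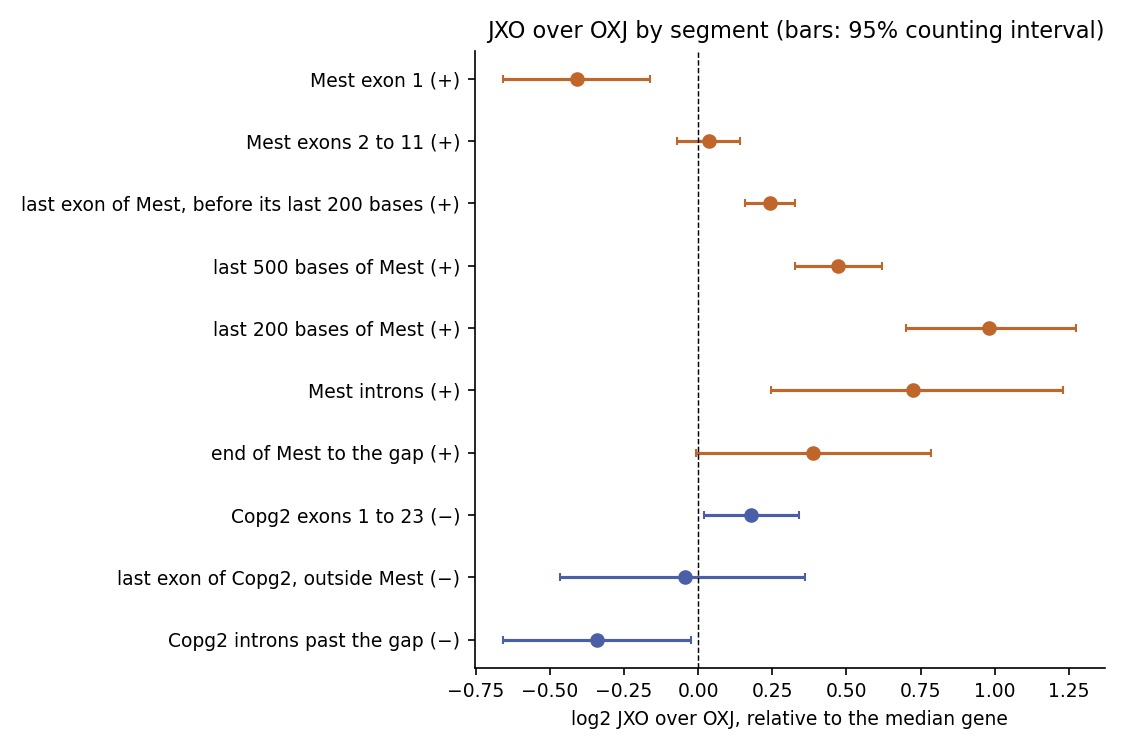
The log2 ratio of JXO over OXJ relative to the median gene for segments of *Mest* on the (+) strand and of *Copg2* on the (−) strand, each with its 95% counting interval; the dashed line is the ratio of the median gene. The first exon of *Mest* lies at −0.41, its last 500 bases at 0.47 and its last 200 bases, within them, at 0.98, both windows chosen after the values were seen, while the segments of *Copg2* lie between −0.34 and 0.18. The value of −0.34 is that of the introns past the gap, of which intron 9 alone had an interval wholly below 0.

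Among imprinted genes, *Mest* was one of the most abundant on the paternal list. Of 35 listed paternally expressed genes 22 were measured, and *Mest* was number 3 by level in JXO and number 2 in OXJ. The growth factor gene *Igf2* led with 879 in JXO and 533 in OXJ. The amino acid transporter gene *Slc38a4* had 348 in JXO and 145 in OXJ, and *Impact*, a regulator of translation, 172 in JXO and 145 in OXJ. Of the 21 with enough reads, 0 were past 2-fold in either direction, and their median log2 ratio was 0.09, against 0 over all genes by construction. Of 30 listed maternally expressed genes 25 were measured. *Copg2* was number 15 and *Klf14* number 23 in both libraries, and of the 21 with enough reads, 1 was at least 2-fold higher in JXO (*Phlda2*, a gene of placental growth, with a level of 2.69 in JXO and 0.871 in OXJ and a log2 ratio of 1.13) and 0 were lower, with a median of −0.16. Over the 611 protein-coding genes tested, 1.31% were at least 2-fold higher in JXO and 2.95% lower. Against these shares the counts say little about either list. Of 10 coatomer subunits 2 lay inside the tracks, *Copz2*, the ζ2 subunit, with 204 in JXO and 130 in OXJ, and *Copg2*. Of 17 Krüppel-like factors 2 did, *Klf4* with 17.97 in JXO and 21.5 in OXJ, and *Klf14*.

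The genes of nearest level over both libraries, among 725 protein-coding genes, were for *Mest* the respiratory chain gene *Ndufc2* (287 in JXO and 158 in OXJ), *Tmbim6* (264 and 184) and *Impad1* (263 and 146). For *Copg2* they were the histone demethylase gene *Kdm3a* (31.4 in JXO and 19.4 in OXJ), the DNA methyltransferase gene *Dnmt3a* (30.43 and 20.5) and *Casd1* (32.0 and 18.7). Likeness was the distance of the log2 levels over 2 libraries, at most 0.18 for *Mest* and 0.08 for *Copg2*.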

How the data were processed

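Ribosomal RNA was removed from the RNA of 2 MEF lines, and paired-end libraries were made in which dUTP keeps the strand. The submitters' processing notes name CASAVA 1.9 and TopHat 1.2.0 on mm9, with up to 10 loci per read. The authors scaled the depth at each base to a total of 50000000 aligned reads, added 1 and took log2, and these log2 values were deposited as 4 tracks. Undoing the log2 and the scaling gave whole reads at each base (largest deviation 3.61e-14). The tracks named forward held RNA of the (−) strand.

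Gaps of at most 50 kb between covered bases, unknown bases not counted, were bridged to give 616 stretches of 63.9 Mb, and genes wholly inside were measured on GENCODE M1 exons. Read pairs were counted as 200 bases. Ratios used genes with at least 20 pairs over both libraries. The 3 genes, the lists and the windows were chosen with earlier results of these data known. Named genes were the members, covered genes of the flanking region, those of nearest level and up to 4 of each list of highest level. Alternatives changed the exons, scale, windows and scaling. *Mest*, *Copg2* and *Klf14* transcripts were aligned to mm9 with minimap2 2.31. Calculations were done in Python 3.11.15 (scipy 1.17.1, pandas 2.3.3, numpy 2.4.6), and plots with matplotlib 3.10.9. Only the sums over intervals and the recovery of set changes in gene ratios were tested on simulated data, with counting error alone.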

Additional observations from a re-analysis of the deposited data

How the results depend on the processing

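Of the alternatives, none turned the direction of a ratio. With the values as deposited the log2 ratio of JXO over OXJ was 0.67 for *Mest* and 0.66 for *Copg2*, with the totals of the tracks set equal 0.48 for both, and over *Mest* exon bases without *Copg2* 0.075 (interval −0.0019 to 0.15, chosen after seeing the data). The *Mest* exon level was 261 in JXO and 164 in OXJ over the longest coding transcript, where *Copg2* had 31.1 in JXO and 19.7 in OXJ. Over exon bases without a gene of the other strand it was 135 in JXO and 91.2 in OXJ for *Mest*, and 32.3 in JXO and 20.6 in OXJ for *Copg2*. As a mean of log2 values it was 42.7 in JXO and 29.2 in OXJ for *Mest*, and 18.1 in JXO and 11.7 in OXJ for *Copg2*. Without shared bases, JXO had 93.1% and OXJ 93.9% of *Copg2* exon signal in sense. Counted as covered bases, sense shares were 54.0% in JXO and 54.8% in OXJ for *Mest*, and 61.0% in both for *Copg2*. The intron over exon level was 0 for both genes and libraries as a median of 100-base bins, 0.698% in JXO and 0.475% in OXJ for *Mest* over the longest coding transcript, and 0.564% in JXO and 0.803% in OXJ for *Copg2* with the bases of the gap counted (chosen after seeing the data). The (+) strand signal past *Mest* was 3.99% of the exon level in JXO and 3.95% in OXJ in the first 2 kb, 6.16% in JXO and 5.18% in OXJ from log2 means, 1.52% in JXO and 1.50% in OXJ of the last 1 kb of *Mest*, and 1.65% in JXO and 1.42% in OXJ of the longest coding transcript (chosen after seeing the data). A 10 kb window adds only unknown bases and gave no other value, and *Klf14* had too few reads for a ratio. The causes of these shifts beyond the construction of each alternative were not tested.

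No paired analysis was possible because each cross has 1 library, and likewise no library was left out. Depth limits *Klf14*, *Mir335*, the single introns and the (+) strand past the gap, where values rest on a few reads.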
